A study of Homo sapiens with 12 samples.

Results

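The cytosolic and mitochondrial heat shock chaperones were followed through an RNA immunoprecipitation experiment on ADAR3, as 10 genes among the 31707 listed in either deposited table. They were chosen by gene ID: HSP90AA1 (ENSG00000080824), HSP90AB1 (ENSG00000096384), HSPA8 (ENSG00000109971), HSPA1A (ENSG00000204389), HSPA1B (ENSG00000204388), HSPD1 (ENSG00000144381), HSPE1 (ENSG00000115541), HSPH1 (ENSG00000120694), DNAJB1 (ENSG00000132002) and HSPB1 (ENSG00000106211). The tables name genes by Ensembl ID alone, so the symbols used here are those paired with these 10 IDs in the list that defined the family. ADAR3, found mainly in brain, belongs to the adenosine deaminases that act on double-stranded RNA but has no known editing activity. The experiment asks which RNAs it is bound to when expressed from its own gene in U373-MG, a line derived from a human glioblastoma. All 12 libraries came from this line, for which the labels give no drug or heat treatment, crosslinked with ultraviolet light at 150 mJ/cm2 before lysis and sonication. They form 3 groups of 4: RNA from immunoprecipitation (IP) with an ADAR3 antibody, RNA from IP with pre-immune serum, and input. The labels do not say whether replicates are separate cultures, so the p-values measure the spread between libraries, which may be technical.

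Heat shock chaperones keep other proteins folded. HSP70 proteins bind exposed hydrophobic stretches of unfolded clients in cycles of ATP hydrolysis started by J-domain proteins such as DNAJB1 and reset by nucleotide exchange factors such as HSPH1. HSP90 proteins take over clients late in folding, including many kinases and hormone receptors, while HSPD1 and HSPE1 form the folding chamber of the mitochondrial matrix. Most of these genes are induced by heat and proteotoxic stress through the transcription factor HSF1, and tumour cells often hold their products at high levels.

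HSF1 binds alternating GAA and TTC units, and the promoters of several members carry them close to the start of transcription. RefSeq (GRCh38.p14) gave 16 promoter windows for the 10 genes, since some have alternative starts, and the 250 bases before each start were searched. The short motifs were GAANNTTC and TTCNNGAA, with 2 units each, and the long ones, with 3 units, extend GAANNTTC by NNGAA or TTCNNGAA by NNTTC. Each short motif reads the same on the opposite strand, the long ones are each other's reverse complement, and every long match contains both short ones. A short motif was found in 8 of the 16 windows, compared with 11.6% of all 35116 promoter windows, and a long one in 4 of the 16, compared with 0.441%. The sites below, 1 per gene with a match, are shown because they are the sequence feature the family is known for and because they let the near-identical HSPA1A and HSPA1B be seen side by side. Capitals mark the motif.
HSP90AA1, chr14:102087111-102087140, minus strand: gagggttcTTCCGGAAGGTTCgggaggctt
HSP90AB1, chr6:44247823-44247852, plus strand: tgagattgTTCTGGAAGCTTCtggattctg
HSPA8, chr11:123062170-123062199, minus strand: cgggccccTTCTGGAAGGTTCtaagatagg
HSPD1, chr2:197500059-197500088, minus strand: attttctgGAAAGTTCTGGAAccgagcgag
HSPA1A, chr6:31815426-31815455, plus strand: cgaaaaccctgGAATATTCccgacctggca
HSPA1B, chr6:31827622-31827651, plus strand: cgaaacccctgGAATATTCccgacctggca
DNAJB1, chr19:14518426-14518455, minus strand: ggcgggctctgGAAGCTTCcgccggacggg
HSPB1, chr7:76302480-76302509, plus strand: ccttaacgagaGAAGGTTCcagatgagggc
A match describes these letters and is not a measured binding site. HSP90AA1, HSP90AB1, HSPD1 and DNAJB1 have more than 1 start, and in each the matches lie before only 1 of them. Which start is the main one was not examined. The windows of HSPE1 and HSPH1 held no match. The HSPE1 window begins at 197500129 on chromosome 2, so the HSPD1 site printed above lies just outside it. No search beyond 250 bases was made.

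Library depth bears on every value that follows. The gene reads summed to between 23999234 and 30156884 per library with the ADAR3 antibody, between 1875461 and 4946149 with pre-immune serum, and between 4873428 and 12772412 for input. Depth therefore separated the IPs completely. Input libraries were made from 1 µg of RNA and IP libraries from all RNA recovered. Levels are given as CPM, the reads of a gene per 1000000 gene reads of the library. The comparison of the IPs took in every gene whose normalized counts averaged 50 or more across both IPs and was fitted with limma on log2(normalized count + 1) with Benjamini-Hochberg adjustment over all 11112 genes tested. Of the 10 chaperones, 8 reached this minimum. HSPA1A and HSPE1, with means of 2.12 and 30.4, did not. Levels against input were set side by side as CPM and not tested. The authors normalized input apart from the IPs.

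The HSP90 paralogs moved in opposite directions between the IPs. HSP90AB1, the constitutively expressed cytosolic form, was 2.25-fold higher in ADAR3 IP than in pre-immune IP, and HSP90AA1, the stress-inducible form, was lower, at 0.516 of its pre-immune level. They were the only tested chaperones past an adjusted p of 0.05, 1 of 8 higher and 1 of 8 lower. Over all tested genes 2.33% were called higher and 1.74% lower, 4.07% in all. Among the 1882 tested genes averaging 1000 normalized counts or more, a range set after seeing the data that holds 7 of the 8 tested members, the calls were 10.0% and 5.10%.

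HSP90AB1 had 1378, 1574, 1624 and 1831 CPM with the ADAR3 antibody, 630, 884, 844 and 428 CPM with pre-immune serum, and 1303, 1395, 1307 and 1426 CPM in input. The ADAR3 IP libraries all exceeded the pre-immune ones, which all fell short of input, and ADAR3 IP and input overlapped. The log2 fold change between the IPs was 1.17 ± 0.20 (SE), with a limma adjusted p of 0.00862. On means, ADAR3 IP stood at 1.18 times input and pre-immune IP at 0.513 times input. The higher level in ADAR3 IP than in pre-immune IP thus went with a pre-immune level under input and an ADAR3 IP level close to it.

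HSP90AA1 had 500, 643, 599 and 614 CPM with the ADAR3 antibody, 912, 1080.0, 1239 and 1093 CPM with pre-immune serum, and 1917, 1829, 1845 and 1829 CPM in input. The 3 groups did not overlap, with ADAR3 IP lowest and input highest. The same order without overlap held for 1.90% of all tested genes, which reach down to a mean of 50 normalized counts. HSP90AA1 averaged 7696, and the share among genes of like abundance was not computed. The log2 fold change between the IPs was -0.96 ± 0.13 (SE), with a limma adjusted p of 0.00167, and the ADAR3 IP mean stood at 0.317 of input and the pre-immune mean at 0.583.

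**Figure D1:**
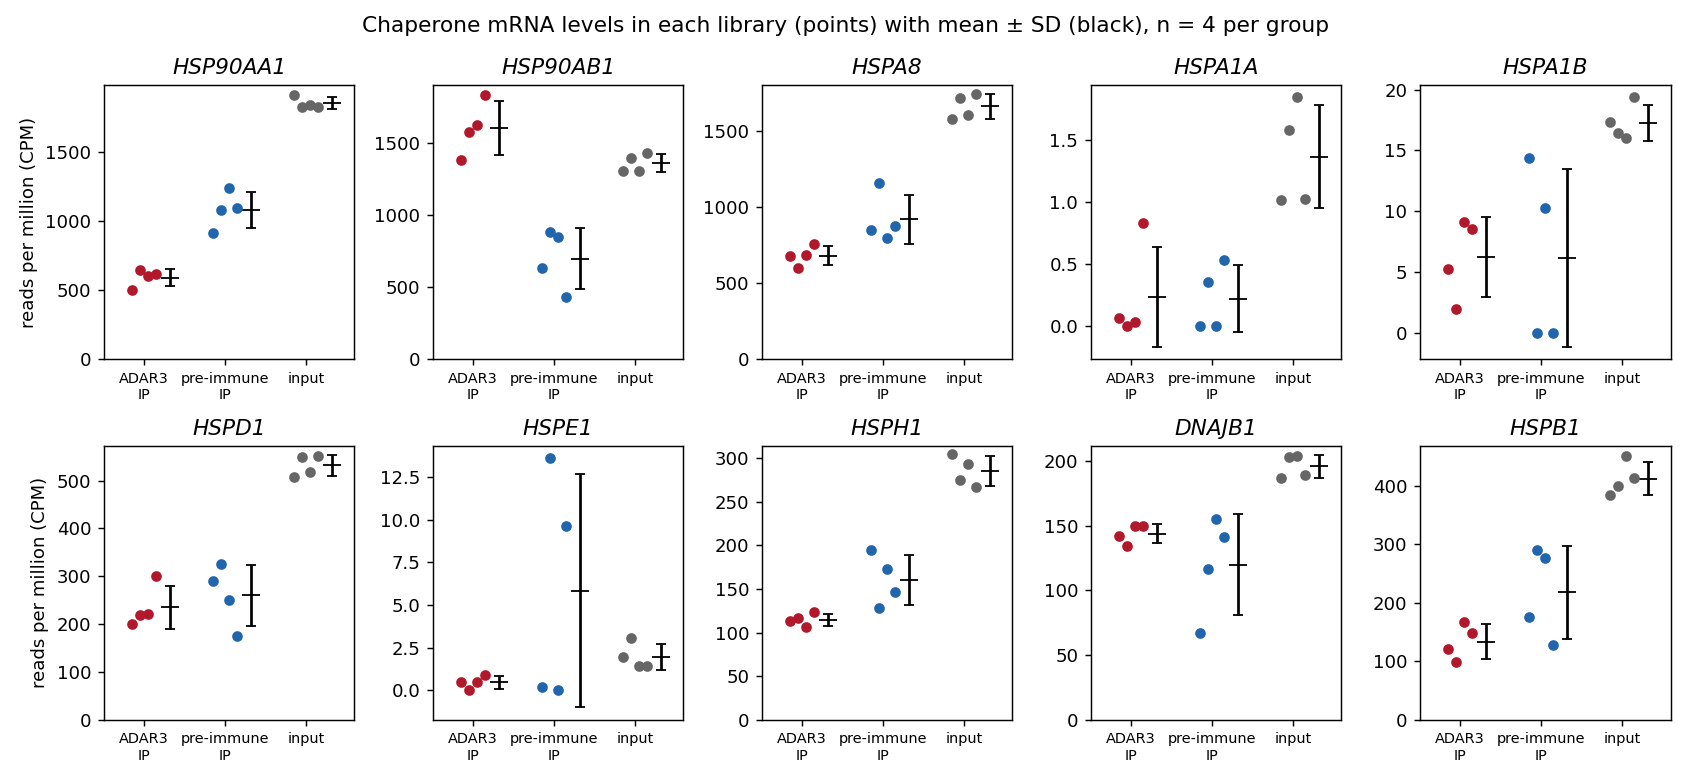
Levels of the 10 chaperone mRNAs in CPM (y axis, linear, own scale for each gene) in ADAR3 IP, pre-immune IP and input (x axis). Points are single libraries and the black mark is the mean with its SD (n = 4), an SD bar that crosses 0 for the scarce genes; HSP90AB1 reaches 1378 to 1831 CPM in ADAR3 IP and 428 to 884 CPM in pre-immune IP, while most other members are highest in input.

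The ratio of the HSP90 paralogs within a library does not depend on how libraries are scaled. HSP90AB1 had 2.76, 2.45, 2.71 and 2.98 reads per HSP90AA1 read in ADAR3 IP, against 0.691, 0.819, 0.681 and 0.392 in pre-immune IP and 0.680, 0.763, 0.708 and 0.780 in input. HSP90AA1 reads outnumbered those of HSP90AB1 in every input and pre-immune library, and the reverse held in every ADAR3 IP library. On the log2 scale the mean ratio in ADAR3 IP was 2.12 above that in pre-immune IP and 1.89 above that in input, and the mean in pre-immune IP differed from input by -0.23. Pre-immune replicates spread more, at 0.646 ± 0.180 (SD, n = 4), than ADAR3 IP at 2.72 ± 0.219 or input at 0.733 ± 0.0465 relative to their means. This ratio was formed after the values of both genes had been seen and is given without a test. It counts reads without regard to transcript length, so it compares libraries and not the abundance of one mRNA with the other.

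**Figure D2:**
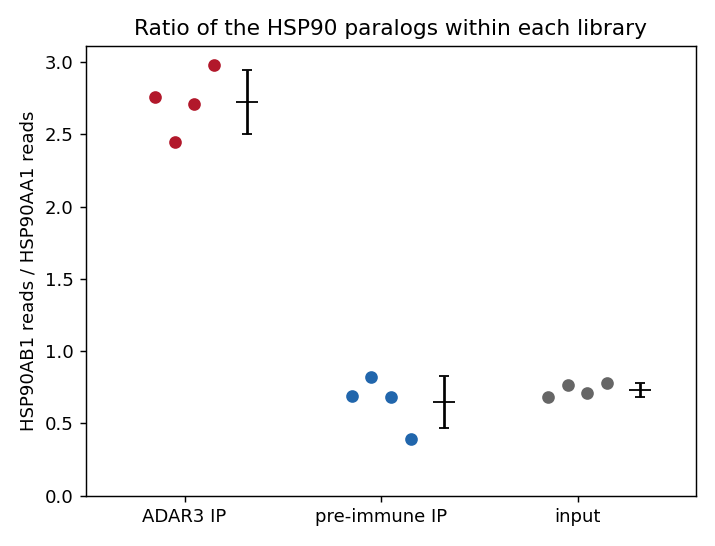
Reads of HSP90AB1 divided by reads of HSP90AA1 (y axis, linear from 0) in each library, grouped as ADAR3 IP, pre-immune IP or input (x axis). Points are libraries and the black mark is the mean with its SD (n = 4); the 4 ADAR3 IP libraries lie between 2.45 and 2.98, and the 8 others at or below 0.819.

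Both calls were made under all 22 other settings run, which changed the pseudocount, the filter, the scaling, the variance model, the test, the pairing or the depth, or left out 1 library. For HSP90AB1 the log2 fold change ranged from 0.97 to 1.31 and the adjusted p from 4.53e-05 to 0.0328. For HSP90AA1 these ranges were -1.03 to -0.81 and 4.89e-12 to 0.0399. With every IP library thinned to the shallowest, the log2 fold changes were 1.16 and -0.99. The authors' deposited table gives 1.13 for HSP90AB1 and -0.95 for HSP90AA1. HSP90AB1 spans 44246194 to 44253883 on chromosome 6 and HSP90AA1 102080742 to 102139749 on chromosome 14, where its span overlaps WDR20. RefSeq lists 6 pseudogenes for HSP90AB1 and 5 for HSP90AA1, counting those with a numbered HSP90AB or HSP90AA name. The sources used here state neither the annotation nor the treatment of multiply mapped reads and overlapping genes, and the part of such reads in the ratio was not tested.

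HSPA8, the constitutive cytosolic HSP70, did not pass the threshold, although its IP libraries did not overlap. It had 679, 601, 681 and 757 CPM with the ADAR3 antibody, 849, 1155, 794 and 872 CPM with pre-immune serum, and 1578, 1713, 1605 and 1745 CPM in input. ADAR3 IP was lowest and input highest, with no overlap of any pair of groups. The log2 fold change between the IPs was -0.50 ± 0.15 (SE), with a limma adjusted p of 0.0897. It passed in 3 of 22 other settings, DESeq2 among them (adjusted p = 0.0167), which is also the value in the authors' deposited table, and the fit without pre-immune replicate 3 (0.0462). RefSeq places 3 small nucleolar RNA genes, SNORD14C, SNORD14D and SNORD14E, inside the HSPA8 span (chromosome 11, 123057489 to 123062462) and lists 20 HSPA8 pseudogenes.

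Neither HSPH1 nor DNAJB1, the cytosolic partners of HSP70, passed the threshold. HSPH1, the HSP110 exchange factor, had 113, 117, 107 and 123 CPM with the ADAR3 antibody, 194, 128, 173 and 146 CPM with pre-immune serum, and 305, 275, 294 and 267 CPM in input. These 3 groups did not overlap either, with the same order as HSPA8, and the log2 fold change between the IPs was -0.55 ± 0.16 (SE), with a limma adjusted p of 0.0974. HSPH1 passed in 2 of 22 other settings, with an adjusted p of 0.00223 by DESeq2 and 0.0484 without pre-immune replicate 2. As for HSPA8, the DESeq2 value is also that of the authors' deposited table. It spans 31134973 to 31162388 on chromosome 13. DNAJB1, the stress-inducible J-domain protein that activates HSP70, had 142, 134, 149 and 149 CPM with the ADAR3 antibody, 66.9, 116, 155 and 141 CPM with pre-immune serum, and 187, 203, 204 and 189 CPM in input. Its span (chromosome 19, 14514769 to 14560391) overlaps TECR and MIR639 in RefSeq. Its IP libraries overlapped, with the ADAR3 IP libraries tight and the pre-immune libraries wide, and both IPs lay below input. The log2 fold change was 0.25 ± 0.24 (SE), with a limma adjusted p of 0.592. Pre-immune replicate 1 alone set its sign, for without that library the log2 fold change was -0.0032.

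HSPB1, the small heat shock protein that holds unfolded clients without ATP, had 122, 98.2, 168 and 148 CPM with the ADAR3 antibody, 176, 290, 278 and 128 CPM with pre-immune serum, and 385, 399.6, 451 and 415 CPM in input. HSPB1 is a short gene on chromosome 7 (76302673 to 76304292). Both IPs lay under input, and pre-immune replicate 4 fell within the ADAR3 IP range. The log2 fold change between the IPs was -0.73 ± 0.26 (SE), with a limma adjusted p of 0.164. Without pre-immune replicate 4, the shallowest library, it was -0.95 with an adjusted p of 0.037.

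Of the mitochondrial chaperonin genes, only HSPD1 reached the minimum for testing. Its span overlaps SNORA105B in RefSeq, which also lists 22 HSPD1 pseudogenes. HSPD1 had 199.8, 218, 221 and 300.2 CPM with the ADAR3 antibody, 289, 325, 250.3 and 176 CPM with pre-immune serum, and 507, 549, 518 and 552 CPM in input. The IPs overlapped and both lay at less than 0.5 of input on means, with an ADAR3 IP ratio of 0.442 and a pre-immune ratio of 0.489. The log2 fold change between them was -0.21 ± 0.20 (SE), with a limma adjusted p of 0.597 and a 95% interval of -0.66 to 0.24.

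HSPE1, the lid of the HSPD1 chamber, was listed with few reads in every library. It had 14, 0, 13 and 22 reads with the ADAR3 antibody, 1, 38, 0 and 18 in pre-immune IP, and 25, 31, 7 and 14 in input. In CPM the pre-immune libraries were 0.202, 13.6, 0 and 9.60, so that 2 of them stood above all input libraries (1.44 to 3.06 CPM) and 2 below. The ADAR3 IP libraries stood at 0 to 0.917 CPM, below every input library. ADAR3 IP replicate 2, with 0 reads, allows up to 0.0995 CPM and pre-immune replicate 3 up to 0.683 CPM, from counting error alone. HSPD1 (197486584 to 197500274) and HSPE1 (197500379 to 197503449) lie head to head on chromosome 2, with 104 bases between their ends in RefSeq. The whole HSPE1 span of 3071 bases lies within the readthrough gene HSPE1-MOB4, and RefSeq lists 28 HSPE1 pseudogenes, the most of any member, against 22 for HSPD1. How reads shared by such genes were assigned is not given, so the level of HSPE1 is uncertain in all 3 groups.

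HSPA1A and HSPA1B, the stress-inducible HSP70 genes, are near-identical copies on chromosome 6 (31815543 to 31817942 and 31827738 to 31830254), 9795 bases apart, and their reads were also few. The 250 bases before their starts were identical at 235 of 249 aligned positions, as in the sites printed above. HSPA1B had 152, 59, 248 and 205 reads with the ADAR3 antibody, 71, 0, 45 and 0 in pre-immune IP, and 221, 166, 78 and 188 in input. That is 1.96 to 9.10 CPM with the ADAR3 antibody, 0 to 14.4 CPM with pre-immune serum and 16.0 to 19.4 CPM in input. Both IPs lay under input. From counting error alone, the 2 empty pre-immune libraries allow up to 1.07 and 1.60 CPM, against 14.35 and 10.25 CPM in replicates 1 and 3. The fitted log2 fold change was 2.20 ± 1.99 (SE), with a limma adjusted p of 0.575. Averaged without logs, normalized counts were 55.0 with the ADAR3 antibody and 56.7 with pre-immune serum. The fitted value moved widely with the setting, to 3.83 at a pseudocount of 0.1, 0.84 with library totals, 1.06 without either empty pre-immune library and -0.0586 by DESeq2, and no direction is given for HSPA1B.

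HSPA1A had 2, 0, 1 and 20 reads with the ADAR3 antibody, 0, 1, 0 and 1 in pre-immune IP, and 13, 16, 9 and 10 in input. At 0 to 0.833 CPM, every ADAR3 IP library lay under the input range of 1.02 to 1.85 CPM. The pre-immune libraries, at 0 to 0.533 CPM, lay under it as well. The empty ones allow up to 0.607 and 0.683 CPM from counting error alone. Nearly all reads of the HSPA1A and HSPA1B pair were assigned to HSPA1B. In input HSPA1A held 5.56% (95% exact Clopper-Pearson interval 2.99 to 9.31), 8.79% (5.11 to 13.9), 10.3% (4.84 to 18.7) and 5.05% (2.45 to 9.09) of the pair. The share in ADAR3 IP was 1.30% (0.158 to 4.61), 0% (0 to 6.06), 0.402% (0.0102 to 2.22) and 8.89% (5.51 to 13.4), so that the share in replicate 4 fell within the range of the input shares and those of the other 3 below it. The pre-immune libraries held 0 of 71, 1 of 1, 0 of 45 and 1 of 1 reads of the pair, too few for a share. The intervals cover counting error only, since PCR copies are not independent molecules. How the counting divided reads that fit both copies is not given, so neither level is taken as that gene's own.

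**Figure D3:**
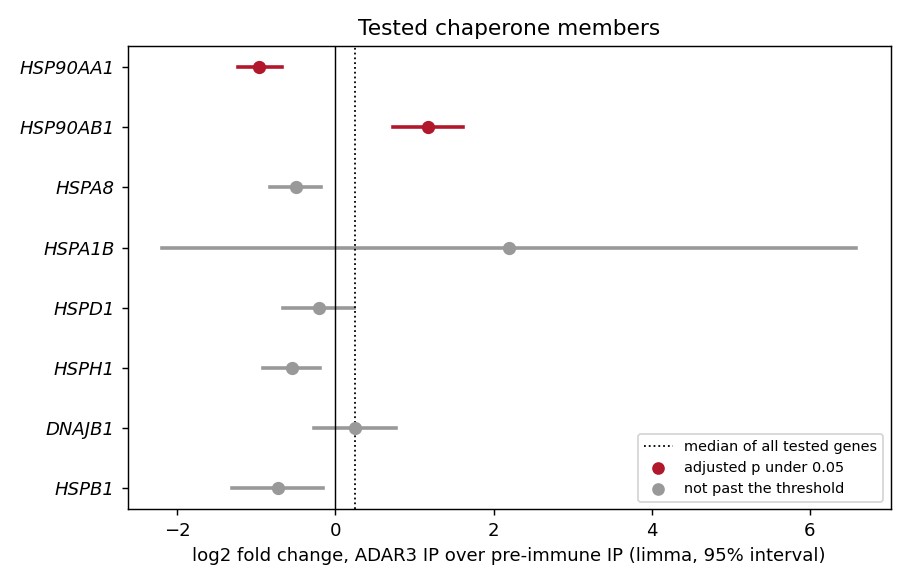
Log2 fold change of ADAR3 IP over pre-immune IP (x axis) for the 8 tested chaperones (y axis), with 95% limma intervals. Red marks an adjusted p under 0.05, grey the rest, and the dotted line is the median of all tested genes, 0.25; HSP90AB1 lies at 1.17 and HSP90AA1 at -0.96.

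Across the 8 tested members, 5 had a negative and 3 a positive log2 fold change, with a median of -0.36 compared with 0.25 over all tested genes. The positive ones include HSPA1B, for which no direction is given, and DNAJB1, whose sign rested on 1 library. The median of all genes depended on the setting, from -0.06 by DESeq2 to 0.48 by edgeR with the replicate block. It fell as the minimum rose, from 0.37 at 10 normalized counts to 0.16 at 100. It was not computed for genes averaging 1000 or more, where 7 of the 8 members lie. ADAR3 IP lay below pre-immune IP without overlap for 3 of the 8 (HSP90AA1, HSPA8 and HSPH1) and above it for 1 (HSP90AB1). The same held for 6.68% and 8.80% of all tested genes, and for 10.3% and 20.1% of those averaging 1000 normalized counts or more. Ordered by log2 fold change, HSP90AA1 stood at the 4.69 percentile of tested genes and HSPB1 at the 8.31, while HSP90AB1 stood at the 79.5 and DNAJB1 at the 49.8. Many genes thus had a log2 fold change as large as that of HSP90AB1, but this order takes no account of precision. The scarce HSPA1B, with an SE of 1.99, stood at the 91.2 percentile. Ordered by limma p-value, HSP90AA1 ranked 65 and HSP90AB1 149 of the 11112 genes tested.

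Relative to input, most members were low in both IPs. For 7 of the 8 tested members, all but HSP90AB1, the ADAR3 IP libraries were without overlap under input, compared with 31.7% of tested genes, and for 0 of 8 they were without overlap over it, compared with 29.3%. For 8 of 8 the pre-immune libraries were without overlap under input, compared with 16.3% of tested genes, while 5.93% were over it. Both IPs were under input for 7 of 8, compared with 11.6%. Among genes averaging 1000 normalized counts or more these shares were 27.0% for ADAR3 IP, 23.1% for pre-immune IP and 16.5% for both. Of the 7 members there, 6 had both IPs under input. HSPA1B is outside that range but among the 8, with 71, 0, 45 and 0 pre-immune reads and a level not taken as its own. ADAR3 IP over input with pre-immune IP under it, the pattern HSP90AB1 missed by its overlap with input, held for 1.24% of tested genes and 0 of 8 members. The median log2 ratio to input over the 8 members was -1.30 for ADAR3 IP, where all tested genes had 0.00, and -0.89 for pre-immune IP, where they had -0.05. With the 20 genes that were among the 10 most abundant of any library left out of the totals, HSPA1B in pre-immune IP was the only tested member whose overlap with input changed, and it then overlapped.

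**Figure D4:**
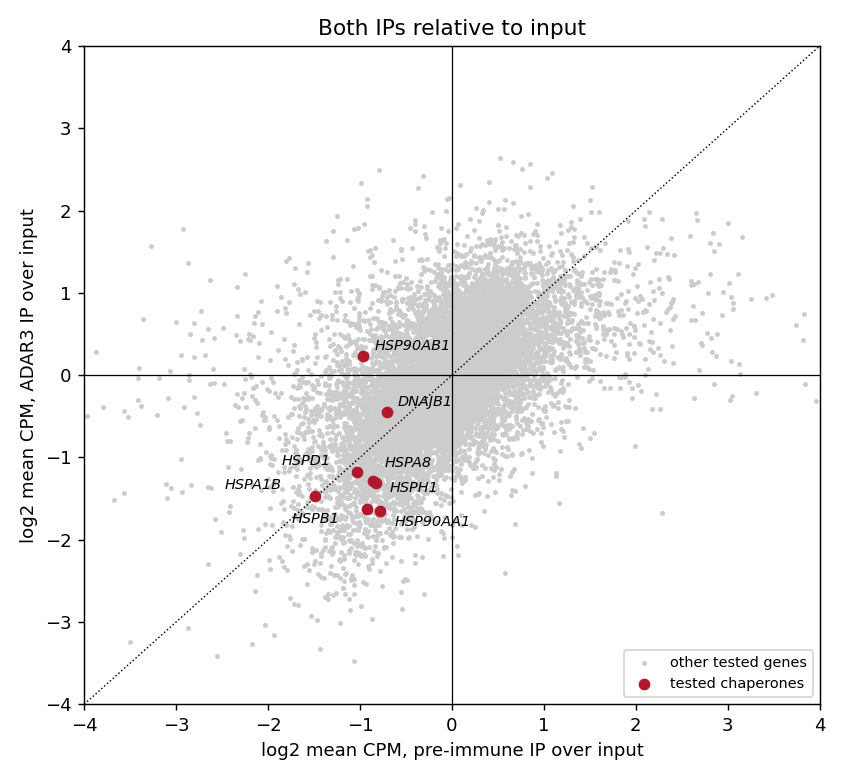
Mean CPM in ADAR3 IP over input (y axis) against pre-immune IP over input (x axis), both on the log2 scale, for tested genes (grey) and the 8 tested chaperones (red), with equality as a dotted line. The axes leave out 65 genes beyond 4 log2 units and 5 genes with no input read; 7 chaperones lie in the lower left part and HSP90AB1 lies at 0.24 on the y axis.

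Summed over the 10 members, chaperone reads were 0.314%, 0.339%, 0.356% and 0.393% of the library with the ADAR3 antibody, 0.313%, 0.399%, 0.374% and 0.299% with pre-immune serum, and 0.620%, 0.639%, 0.624% and 0.645% in input. The IPs overlapped and both lay well below input. Their makeup differed: HSP90AB1 supplied 45.6% ± 1.23 of the members' reads with the ADAR3 antibody, 19.8% ± 3.80 with pre-immune serum and 21.5% ± 0.601 in input (SD, n = 4 each). Without HSP90AB1 the sum was 0.190% ± 0.0151 of reads with the ADAR3 antibody, 0.277% ± 0.0287 with pre-immune serum and 0.496% ± 0.00536 in input. Setting HSP90AB1 apart was not planned and followed the values seen. Leaving out the member that was higher in ADAR3 IP by itself lowers the sum there. The likeness rule ranked 11099 genes by how closely log2(CPM + 1) followed the members' sum over the 12 libraries. The highest were ENSG00000026025 (Pearson r = 0.986), ENSG00000148303 (r = 0.980) and ENSG00000108602 (r = 0.978). None of these IDs is paired with a symbol in the deposited data. ENSG00000026025 averaged 2074 ± 116 CPM with the ADAR3 antibody, 1932 ± 331 CPM with pre-immune serum and 4082 ± 224 CPM in input (SD, n = 4 each). The 12 points behind each correlation fall into an input cluster and an IP cluster, which they share with any gene that is low in both IPs.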

How the data were processed

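RNA from 12 libraries was measured after depletion of ribosomal RNA, strand-specific library construction and 15 amplification cycles, per the labels' protocols, although the molecule label reads polyA RNA. The submitters' processing notes name STAR 2.7.7a, featureCounts, DESeq2 and GRCh38, without roles. The authors deposited a normalized signal, each gene's count over its library's size factor, with IP and input in separate tables. In all 12 columns 100% of values were whole multiples of 1 read (tolerance 0.001 reads), so reads and CPM were recovered. Log2 fold changes and adjusted p-values of the authors stand in the deposited IP table. limma 3.58.1 (R 4.3.3) was fitted with a variance trend to the whole IP table, at a minimum of 50 and a pseudocount of 1. Its fold changes are on the log2(normalized count + 1) scale, where values of low genes depend on the pseudocount. edgeR 4.0.16 and DESeq2 1.42.0 on recovered reads were alternatives. The members, lists, minimum and settings were chosen with earlier results of these data known.

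Named genes were to be the 10 members, changed genes of 7 chaperone lists and the genes most like the members' sum. The reference table holds 0 Ensembl IDs among 59788 genes, so the lists and the cell type markers could not be matched and were not analysed here. Between same-numbered IP libraries, deviations from the group means had correlations of -0.00165 to 0.0236, so replicate numbers were not taken as pairs.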

Additional observations from a re-analysis of the deposited data

Results flagged for a closer look

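In 36 sets of 4 libraries (12 measures in 3 groups), 1 library stood far from the others of its group on Dixon's gap-to-range ratio (95% level). It was HSPA1A in ADAR3 IP replicate 4, at 0.833 CPM against 0 to 0.069 CPM in the other 3 libraries. These are 20 reads against 0 to 2. Chance marks about 1 set in 20.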

How the results depend on the processing

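The counts of 1 chaperone higher and 1 lower were recomputed under 12 planned settings, with each of the 8 IP libraries left out, and 2 chosen after seeing the data (a minimum of 100, and edgeR with the block). The count of higher members was 1 in each. The count of lower members became 2 of 8 with totals that leave out the most abundant genes (HSPA8 added). Over all genes that setting called 257 of 11112 lower. DESeq2 gave 3 of 10 members (HSPA8 and HSPH1 added), with 1010 of 17946 genes lower. Leaving out 1 library gave 1 to 2. The added member was HSPH1 without pre-immune replicate 2, HSPA8 without replicate 3 and HSPB1 without replicate 4. Over all genes these 3 fits called 202 of 11105, 243 of 11116 and 340 of 11098 lower. Direction reversed for HSPA1B with DESeq2 (-0.0586) and for DNAJB1 without pre-immune replicate 1 (-0.0032; up to 0.3646 with another library left out), neither past the threshold. The cause was not tested. With the replicate number as a block, 1 higher and 1 lower member were called by limma and by edgeR, the same 2 genes. The median log2 fold change over all tested genes, 0.25, was 0.39 with TMM factors, 0.14 with totals that leave out abundant genes, 0.45 without a filter, 0.08 by edgeR, 0.48 by edgeR with the block and -0.06 by DESeq2. Over all 11112 tested genes limma called 259 higher and 193 lower. It called 1493 and 233 of 28556 without a filter, and 659 and 244 of 15182 at a minimum of 10. Of the same 11112 it called 394 and 159 with library totals and 449 and 129 with TMM factors. With variance weights per group it called 142 and 55. Calls were 998 and 244 of 14470 by edgeR, 395 and 127 of 14470 by edgeR with the block, and 1571 and 1010 of 17946 by DESeq2. Without 1 library limma called 108 to 432 higher and 65 to 340 lower, of 11098 to 11138 tested. The summed share became 0.408% for ADAR3 IP, 0.444% for pre-immune IP and 0.719% for input with those totals, and ranged from 0.336% to 0.363%, 0.329% to 0.362% and 0.628% to 0.636% without 1 library. HSPA1A, HSPA1B and HSPE1 had 0 reads in some IP libraries. HSPA1A and HSPE1 passed in none of the settings that tested them.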
